A study of Mus musculus with 12 samples.

Results

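The milk protein genes are the 10 mouse genes *Csn1s1*, *Csn1s2a*, *Csn1s2b*, *Csn2*, *Csn3*, *Wap*, *Lalba*, *Btn1a1*, *Xdh* and *Mfge8*, taken by name from every expression table. All 10 had a row of their own in each of the 12 samples, among 23704 gene names in the Normal and Tumor tables and 23691 in the DMSO and C646 tables. RNA-seq of female mice on the FVB background was used in 2 experiments, with 3 replicates in each of 4 groups. Normal was untreated mammary gland of FVB wild type mice, from abdominal and inguinal glands pooled from 3 mice per replicate, and Tumor was untreated tumor of MMTV-PyVT mice, from the thoracic gland of 1 mouse per replicate, all at 12 weeks of age. MMTV-PyVT mice carry the polyoma virus middle T antigen under the mouse mammary tumor virus promoter, and this transgene is also present in both groups of the other experiment, in which tumor-bearing mice of 12 weeks received the solvent DMSO or the p300 inhibitor C646. The labels give 1 mg/kg for both injections, and the biggest tumor of each of 3 mice per group was sequenced. Genotype, tissue, gland position and pooling changed together between Normal and Tumor, so their parts in a difference cannot be told apart.

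Milk proteins are made by luminal alveolar cells of the mammary gland, which mature during pregnancy and secrete during lactation. Prolactin acts through its receptor, the kinase JAK2 and the transcription factor STAT5, which binds the promoters of casein and whey protein genes together with the glucocorticoid receptor and other factors. The caseins (*Csn1s1*, *Csn1s2a*, *Csn1s2b* and *Csn2*, the calcium-sensitive caseins, and *Csn3*, κ-casein, which stabilizes the micelle) carry calcium phosphate, while *Wap* (whey acidic protein) and *Lalba* (α-lactalbumin, the regulatory subunit of lactose synthase) belong to the whey. *Btn1a1* (butyrophilin), *Xdh* (xanthine dehydrogenase) and *Mfge8* (lactadherin) encode proteins of the milk fat globule membrane, and the last 2 are also used outside lactation.

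The 5 casein genes lie together on chromosome 5 between 87666208 and 87932665 (GRCm38, the build also called mm10, with GENCODE vM21 gene positions), in the order *Csn1s1*, *Csn2*, *Csn1s2a*, *Csn1s2b* and *Csn3*. Only *Csn2* is on the minus strand. *Prr27* and *Odam*, the protein-coding genes between *Csn1s2b* and *Csn3*, and the non-coding *Gm7337* and *BC037156* stayed under 1 FPKM (fragments per kilobase, scaled to sequencing depth) in all 12 samples. *Sult1e1*, the neighbor on the other side of *Csn1s1*, was under 1 FPKM in every sample but DMSO replicate 1, where it was at 4.49. *Wap* lies on the minus strand of chromosome 11 at 6635482 to 6638637, next to *Tbrg4*, which ranged only from 21.0 to 37.3 FPKM over the 12 samples. *Lalba* is on chromosome 15 (98480400 to 98482721), *Btn1a1* on chromosome 13 (23456992 to 23465901), *Xdh* on chromosome 17 (73883895 to 73950196) and *Mfge8* on chromosome 7 (79133768 to 79149060), all on the minus strand.

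RefSeq promoter windows (GRCm38.p6, 250 bases before to 50 after the start) were at hand for 6 of the 10 genes, *Csn1s1*, *Csn1s2a*, *Csn2*, *Wap*, *Lalba* and *Mfge8*; *Csn1s2b*, *Csn3*, *Btn1a1* and *Xdh* were the others. The STAT-type palindrome TTCNNNGAA, which reads the same motif on both strands, was found in 3 of the 6, all calcium-sensitive caseins, and in 8.30% of all 32851 windows. The C/EBP-type motif TTGCNNAA, searched on both strands, was found in 0 of the 6 and in 10.8% of all windows. The 3 sites are shown in 30 bases each, and the capitals mark the palindrome. The *Csn1s1* site lies 100 to 92 bases before the start at chr5:87666097-87666126 (plus strand), the *Csn2* site 93 to 85 bases before the RefSeq start at chr5:87699500-87699529 (minus strand), and the *Csn1s2a* site at chr5:87774459-87774488 (plus strand). The *Csn1s2a* site starts 20 bases after the RefSeq start but 97 bases before the GENCODE start of that gene, since the annotated starts differ by 117 bases, and the *Csn2* site lies inside the longest GENCODE model, whose start is 205 bases farther upstream.
Csn1s1: atttgtaacaaTTCTTAGAAtttatgtaaa
Csn2: atcacgtagacTTCTTGGAAttgaagggac
Csn1s2a: attatagtgctTTCTTAGAAttacaatgac
A match describes letters in a window and does not show binding.

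Summed FPKM per sample ranged from 550599 to 783719 in the Normal and Tumor tables and from 526855 to 638606 in the others, and read counts are not used here. The labelled tissues carried mammary markers: the 8 luminal epithelium markers (*Krt18*, *Epcam* and *Cldn3* among the highest) summed to 479 to 1007 FPKM in Normal and 3206 to 4418 in Tumor, and 7 of 8 were called higher in Tumor. All 8 adipocyte markers were called lower in Tumor (summed 26434 to 33314 FPKM in Normal and 119 to 2508 in Tumor), as were 4 of 4 brown adipocyte, 4 of 4 B lymphocyte, 5 of 5 T lymphocyte, 4 of 4 macrophage, 4 of 4 endothelium and 3 of 4 fibroblast markers. Skeletal muscle markers were called higher in Tumor in 4 of 4 (10.4 to 77.1 FPKM against 1490 to 4249), and basal epithelium markers were mixed, with 2 higher and 4 lower of 8. Of all genes tested, 28.8% were called higher in Tumor and 31.7% lower. A gene was tested if it reached 1 FPKM in at least 3 samples. The B and T lymphocyte markers were at most 1.18 FPKM in any tumor and passed this through Normal, as did *Lep*, *Elovl3*, *Tek* and *Myh11* among others. For these a lower call was in part built into the selection. In bulk tissue, fewer cells of a type and less RNA per cell cannot be told apart.

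The first comparison was Tumor against Normal. Tumors held more mRNA of κ-casein, both whey proteins, *Csn1s2b*, *Xdh* and *Mfge8*. *Csn1s1*, *Csn1s2a*, *Csn2* and *Btn1a1* varied widely among the tumors and also among the normal glands, and they did not pass the test. In all, 6 of 10 genes were called higher (limma, Benjamini-Hochberg adjusted p under 0.05), against a background of 28.8% of the 13031 genes tested, and 0 of 10 were called lower, against 31.7%. One of the 6, *Csn1s2b*, passed the filter on low values only through the tumors, where it was high, and is no support for the count. *Wap*, at 2.62, 0 and 0.950 FPKM in Normal, likewise met the filter only because of the tumors and is no support for the count either. Before adjustment, the members at p under 0.05 were also 6 of 10 (limma), all higher. Of all genes tested, 64.8% were at p under 0.05 in either direction, so this count is near the background. Of all genes called, 47.7% were higher, against 36.2% with each sample scaled to a fixed sum and 54.4% with quantile normalization, and 6 members were called higher under each of these scalings. The median log2 fold change of the 10 was 2.98, beside -0.02 over all genes tested. The groups did not overlap for 6 of the 10, all higher in Tumor. *Csn1s2b* and *Wap* are among these 6 and, having met the filter only because of the tumors, are no support for this count or for the median. Of all genes tested, 33.1% did not overlap and were higher in Tumor, and 35.8% did not overlap and were lower. The plot of FPKM by sample shows each value.

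**Figure D1:**
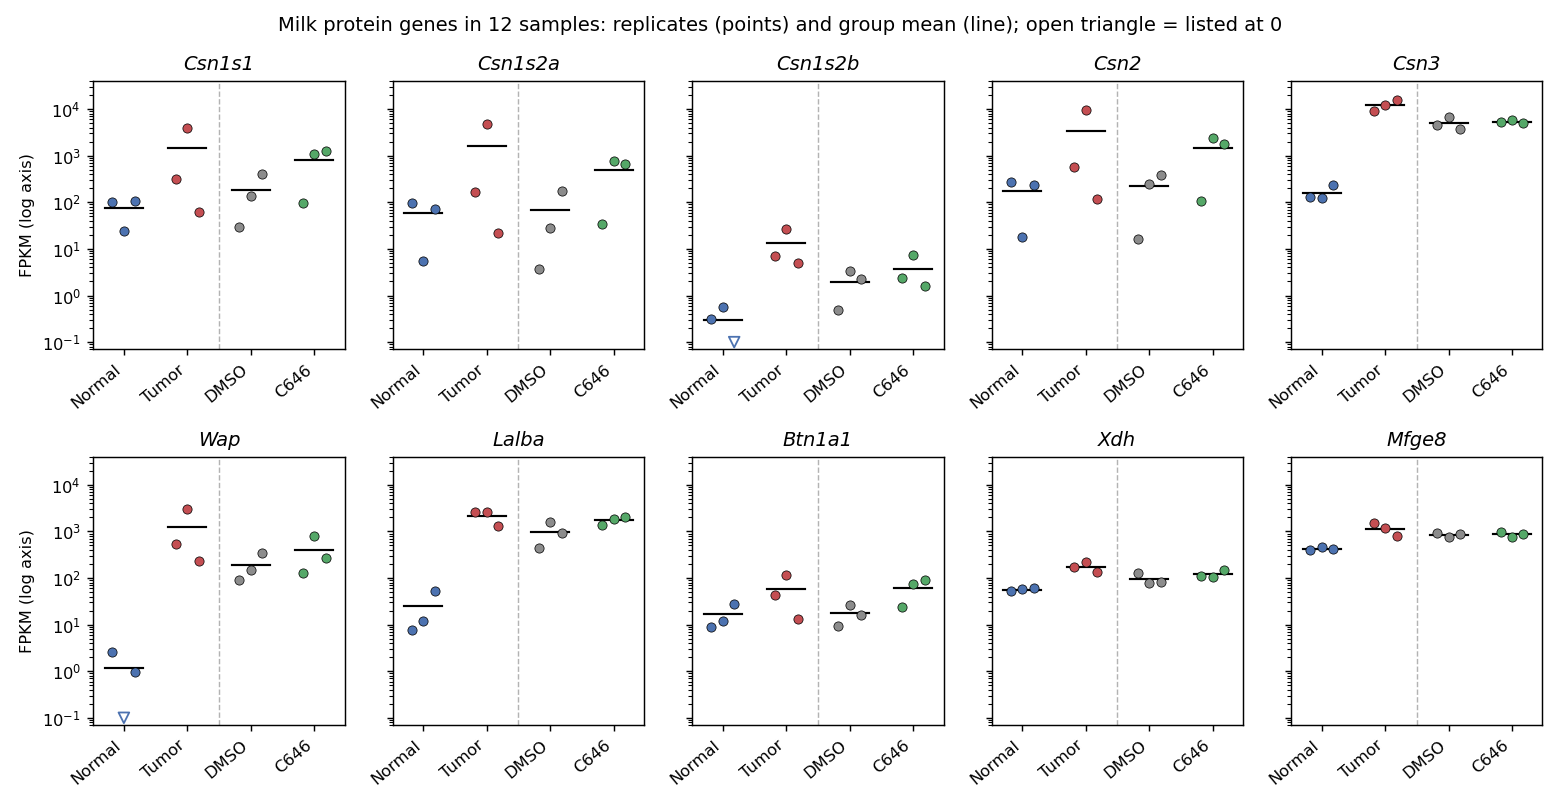
FPKM of the 10 milk protein genes (log axis) in each replicate of Normal, Tumor, DMSO and C646; lines are group means and open triangles stand for samples listed at 0, drawn at the foot of the axis. *Csn3* lies between 122 and 231 FPKM in Normal and between 9136 and 15346 in Tumor, whereas the tumors spread from 61.1 to 4013 FPKM for *Csn1s1*; the dashed line separates the experiments, whose tables were made separately.

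Among the caseins, *Csn3* had the narrowest groups. It was at 130.5, 122 and 231 FPKM in Normal replicates 1, 2 and 3 and at 9136, 12483 and 15346 FPKM in the tumors. Each tumor was far above each normal gland, and *Csn3* ranked as the first or second most abundant gene name in the 3 tumors. The mean rose from 161 ± 60.5 to 12322 ± 3108 FPKM (SD, n = 3 each), or by 6.29 on the log2 scale (95% confidence interval 5.53 to 7.05, limma adjusted p = 2.09e-05).

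*Csn2*, β-casein, was at 273, 18.2 and 233 FPKM in Normal and at 580.4, 9504 and 115 FPKM in Tumor. Tumor replicate 2 was the highest sample by far, tumor replicate 3 was below 2 normal glands, and the groups overlapped. Its log2 fold change was 3.03 (95% confidence interval -0.91 to 6.97, limma adjusted p = 0.155).

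*Csn1s1*, α-S1-casein, measured 100.3, 24.2 and 105 FPKM in Normal and 310.0, 4013 and 61.1 FPKM in Tumor, with a log2 fold change of 2.74 (-0.58 to 6.05, limma adjusted p = 0.131). *Csn1s2a*, an α-S2-casein, measured 98.3, 5.64 and 72.1 FPKM in Normal and 169.8, 4754 and 21.6 FPKM in Tumor. Both genes repeated the sample pattern of *Csn2*, with tumor replicate 2 highest, tumor replicate 3 below 2 normal glands and Normal replicate 2 lowest in its group. For *Csn1s2a* the log2 fold change was 2.92 (-1.65 to 7.50, limma adjusted p = 0.229).

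*Csn1s2b*, the other α-S2-casein, was the lowest of the caseins on the per-length FPKM scale, at 0.315 and 0.576 FPKM and a listed 0 in Normal and at 7.22, 27.1 and 4.96 FPKM in Tumor. The groups did not overlap, and the gene passed the filter of at least 1 FPKM in at least 3 samples through the tumors alone, so that a difference was built into its being tested. Its log2 fold change of 5.73 (3.04 to 8.42, limma adjusted p = 0.00391) was 3.13 with a pseudocount of 1 FPKM in place of 0.03125.

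Of the whey protein genes, *Wap* was at 2.62, 0 and 0.950 FPKM in Normal and at 527, 2999 and 235 FPKM in Tumor. The lowest tumor was far above the highest normal gland. The gene met the filter of at least 1 FPKM in at least 3 samples only because of the tumors, so that a difference was in part built into its being tested. The log2 fold change of 10.70 (6.80 to 14.59, limma adjusted p = 0.00123) depends on the pseudocount because 1 normal sample is listed at 0, and it was 8.55 with a pseudocount of 1 FPKM.

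*Lalba* measured 7.59, 12.2 and 53.8 FPKM in Normal and 2596, 2651 and 1290.4 FPKM in Tumor. No sample of one group came near the other, although the third normal gland was well above the other two. Mean levels were 24.5 ± 25.4 and 2179 ± 770.0 FPKM (SD, n = 3 each), and the fitted log2 fold change was 6.92 (5.29 to 8.54, limma adjusted p = 1.75e-04).

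The genes of the fat globule membrane differed less. *Xdh* was at 52.5, 56.7 and 60.0 FPKM in Normal and at 174, 215 and 135 FPKM in Tumor, with a log2 fold change of 1.61 (1.17 to 2.05, limma adjusted p = 3.37e-04). *Mfge8* was at 397, 458 and 423 FPKM in Normal and at 1480.4, 1171 and 805 FPKM in Tumor, with a log2 fold change of 1.39 (0.81 to 1.97, limma adjusted p = 0.00227). Both were tightly grouped in the normal glands, and neither overlapped between groups, as was so, with Tumor higher, for 33.1% of all genes tested. *Mfge8* was the most abundant member in each of the 3 normal glands.

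*Btn1a1* was at 8.97, 12.3 and 28.3 FPKM in Normal and at 44.3, 115 and 13.2 FPKM in Tumor. Tumor replicate 3 lay within the range of the normal glands. Its log2 fold change was 1.48 (-0.34 to 3.29, limma adjusted p = 0.137).

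One tumor decided which of the overlapping genes passed. Without Tumor replicate 3, *Csn1s1* had a log2 fold change of 4.14 (limma adjusted p = 0.0215), *Csn2* of 4.48 (0.0455) and *Btn1a1* of 2.29 (0.0156), and 8 members were called higher; *Csn1s2a*, at 4.71 (0.0537), was still not called. Leaving out Tumor replicate 2 instead gave 1.12 for *Csn1s1*, 0.82 for *Csn1s2a*, 1.30 for *Csn2* and 0.73 for *Btn1a1*, none called, and 5 members called higher. *Csn1s2b* could not be tested with any tumor left out, since 2 tumors do not meet the filter.

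Since luminal markers were also higher in Tumor, the member values were set against them in each sample. On the log2(FPKM + 0.03125) scale, the mean of the 8 luminal markers was 6.003 ± 0.52 in Normal and 8.52 ± 0.17 in Tumor (SD, n = 3 each), a difference of 2.51. Relative to this mean, *Wap* was higher in Tumor by 8.18, *Lalba* by 4.40, *Csn3* by 3.77 and *Csn1s2b* by 3.22, and the groups did not overlap for any of the 4. *Wap* and *Csn1s2b* met the filter only because of the tumors, so their separation is no support for a difference. Each has a normal sample listed at 0, so its difference depends on the pseudocount. For *Csn1s2b* the lowest tumor was at -6.11 and the highest normal gland at -6.29. The share of all genes without overlap on this scale was not computed. *Csn1s1*, *Csn1s2a* and *Csn2* differed by 0.23, 0.41 and 0.52, all with overlapping groups.

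The fat globule membrane genes turned direction on that scale, on which the median over all genes tested was -2.53. *Mfge8* differed by -1.12, from 2.73 ± 0.62 in Normal to 1.61 ± 0.34 in Tumor (SD, n = 3 each), without overlap, *Btn1a1* by -1.04 and *Xdh* by -0.91, both with overlap. With 3 samples against 3, the exact two-sided permutation test cannot give less than p = 0.1, which was its value for the 5 members that did not overlap, so these marker-relative differences have no call. The plot of fold changes sets them beside the FPKM values.

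**Figure D2:**
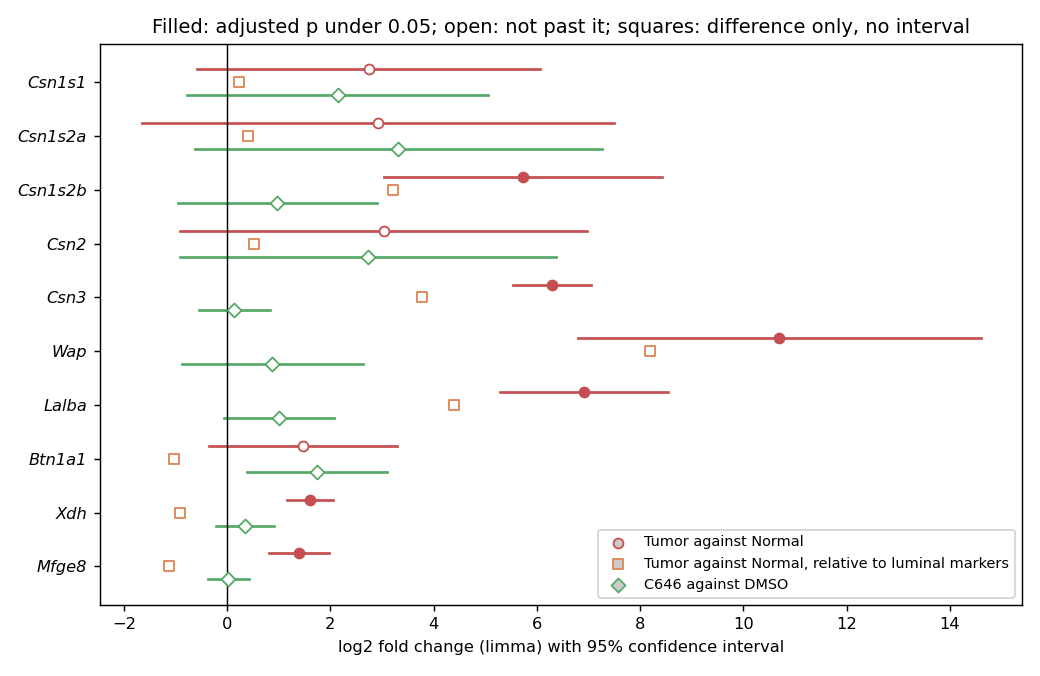
Log2 fold changes of the 10 genes with 95% confidence intervals from limma for Tumor against Normal (circles) and C646 against DMSO (diamonds), filled where the adjusted p is under 0.05; squares are Tumor against Normal differences relative to the 8 luminal markers, without an interval or call. All 6 filled symbols belong to Tumor against Normal, and the squares of *Btn1a1*, *Xdh* and *Mfge8* lie below 0, at -1.04, -0.91 and -1.12. The median of all genes tested on the scale of the squares was -2.53.

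The members also changed their part in the total. Together they made up 0.204%, 0.116% and 0.221% of the FPKM of named genes in Normal and 1.995%, 5.79% and 3.01% in Tumor. Every tumor was above every normal gland (exact permutation test, p = 0.1, the smallest this design allows). In the normal glands, 0 members were among the 100 most abundant names, and in tumor replicates 1, 2 and 3 there were 3, 7 and 2.

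The composition of the caseins varied within both groups. *Csn3* made up 21.6%, 71.5% and 36.0% of summed casein FPKM in Normal and 89.5%, 40.6% and 98.7% in Tumor. Group means were 43.0% ± 25.7 and 76.3% ± 31.3 (SD, n = 3 each), and the samples overlapped (exact two-sided permutation test, p = 0.2). Tumor replicate 2, in which the calcium-sensitive caseins were highest, was the tumor with the lowest *Csn3* share.

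**Figure D3:**
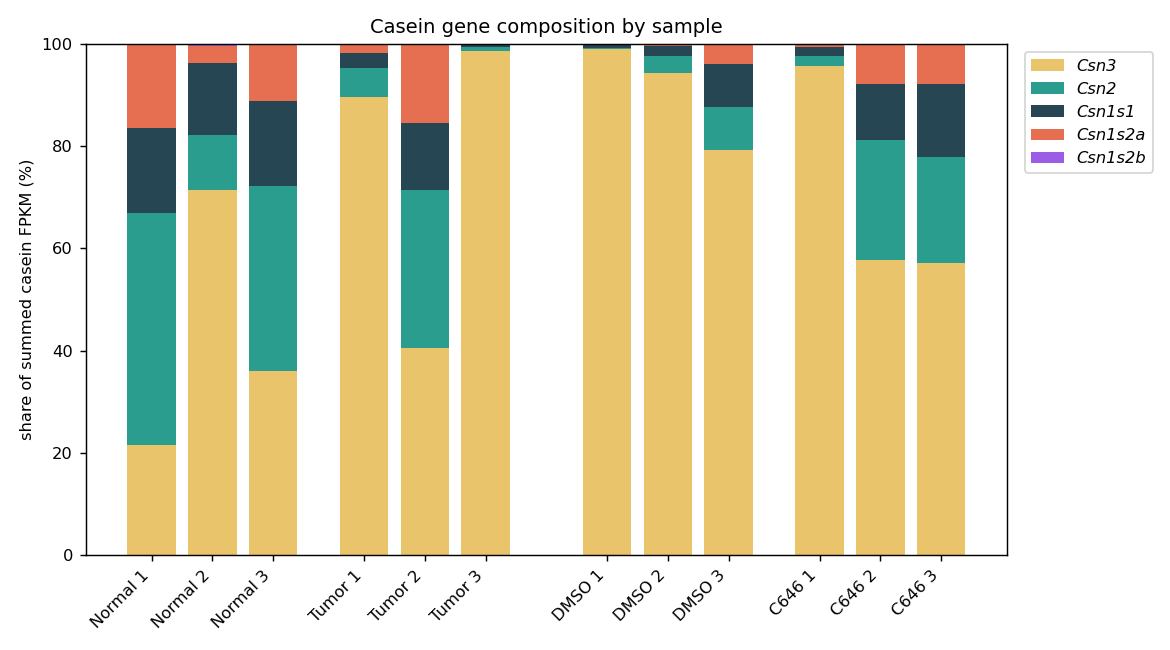
Share of the summed casein FPKM (%) taken by each of the 5 casein genes in the 12 samples. *Csn3* takes 98.7% in Tumor 3 and 98.9% in DMSO 1 but 21.6% in Normal 1, and *Csn1s2b* is too low to be seen in any bar.

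The members differed in how far replicates spread. In Tumor, the SD of log2(FPKM + 0.03125) was 3.92 for *Csn1s2a*, 3.22 for *Csn2* and 3.04 for *Csn1s1*, against a median of 0.28 over all genes tested. In Normal it was 2.26, 2.19 and 1.21 for the same genes, against a median of 0.18. *Csn3*, in contrast, had an SD of 0.38 in Tumor, and 65.8% of genes had a smaller one. In Normal, however, its SD was 0.51, and 92.2% of genes had a smaller one. *Xdh* and *Mfge8* were also near the middle in Tumor, with smaller SDs in 59.7% and 73.2% of genes, and among the steadier genes in Normal, with smaller SDs in only 20.0% and 22.6%. The order tumor replicate 2 above 1 above 3 was shared by 8 of the 10 members and by 12.2% of all genes tested, with *Csn3* (3 above 2 above 1) and *Mfge8* (1 above 2 above 3) as the exceptions.

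After removing group means, *Csn1s1* correlated with *Csn1s2a* at Pearson r = 0.99 and with *Csn2* at r = 0.97 over the 6 samples. With *Csn3*, at the other end of the cluster, *Csn1s1* correlated at r = 0.03, and with *Csn1s2b*, under 1 FPKM in each normal gland, at r = 0.23. These are descriptions over samples that share a fit, with no test.

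**Figure D4:**
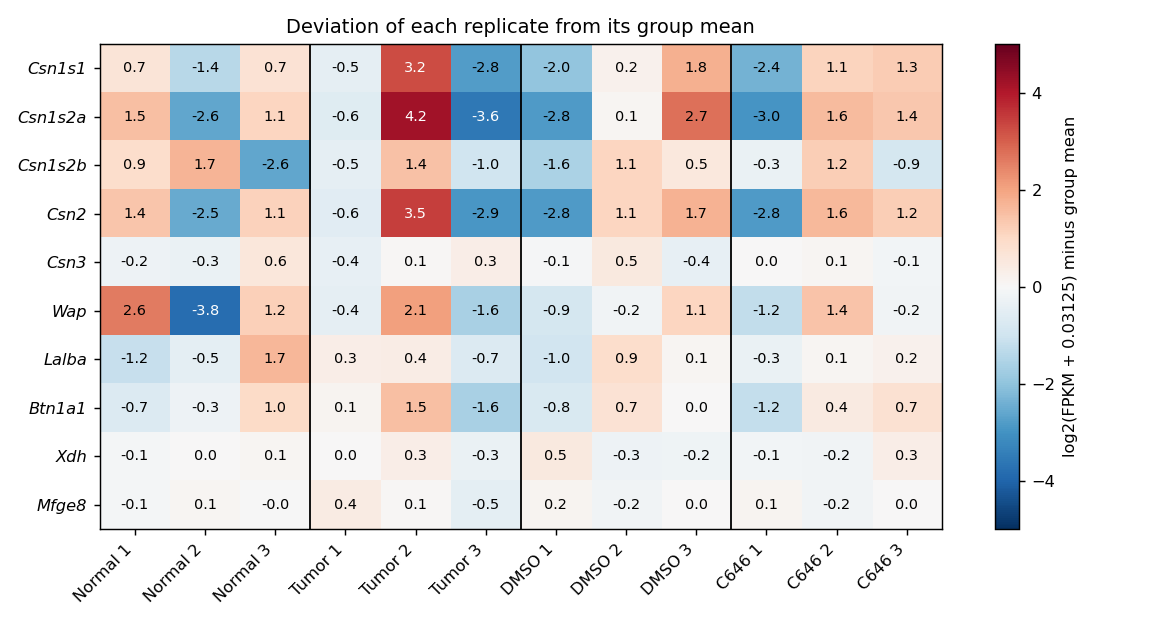
Deviation of each replicate from its group mean in log2(FPKM + 0.03125), by gene (rows) and sample (columns). *Csn1s1*, *Csn1s2a* and *Csn2* share their colors across samples, with Tumor 2 high and Tumor 3, DMSO 1 and C646 1 low, while the rows of *Csn3*, *Xdh* and *Mfge8* are pale.

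Genes around the milk proteins moved in both directions between Normal and Tumor. Of 22 other milk and secretion genes, 19 were tested, 12 were called higher and 4 lower, beside 28.8% and 31.7% of all genes tested. The largest rises were those of *Lcn2* (lipocalin 2, an iron-siderophore binding protein, log2 fold change 6.29, limma adjusted p = 1.22e-05), *Folr1* (folate receptor, 5.44, 1.36e-05), *Wfdc18* (a protein of the WAP domain family, 4.66, 1.32e-04) and *Slc34a2* (a phosphate transporter, 4.55, 1.69e-04). *Slc34a2*, at 0.306 to 0.673 FPKM in Normal and 6.39 to 19.2 in Tumor, passed the filter through the tumors alone, so that its call was in part built into the selection. The same holds for *Lpo* and *Pigr*, also among the 12, which were under 1 FPKM in each normal gland. The 4 that fell handle fatty acids or lipid droplets and are also expressed by adipocytes: *Cd36* (-6.97), *Lpl* (-5.65), *Cidea* (-5.41, also on the brown adipocyte list) and *Fabp3* (-2.71). Adipocyte markers fell in the same samples, as given above, and their part in these 4 values was not tested.

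Of 20 genes of prolactin signalling and mammary regulation, 18 were tested, 7 were called higher and 6 lower, beside 28.8% and 31.7% of all genes tested, so that the number lower was close to the background. *Elf5*, a transcription factor of alveolar cells, was at 31.2, 12.7 and 27.7 FPKM in Normal and 267, 362 and 162 FPKM in Tumor (log2 fold change 3.49, limma adjusted p = 3.45e-04). *Cebpb* rose by 2.39, *Id2* by 2.21 and *Tnfrsf11a*, the receptor of RANKL, by 1.70 on the log2 scale. *Tnfsf11*, which encodes RANKL, was at 4.13, 2.85 and 3.69 FPKM in Normal and at a listed 0, 0.0490 and a listed 0 in Tumor. It passed the filter through Normal alone, so a difference was built into its being tested, and its fitted log2 fold change of -6.37 rests on the pseudocount. The growth hormone receptor *Ghr* fell by 4.36, the estrogen receptor *Esr1* by 2.60 and *Socs1*, an inhibitor of JAK kinases, by 2.39.

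Within the prolactin pathway, *Jak2* fell by 0.88 (limma adjusted p = 8.65e-04), from 19.4 to 22.1 FPKM in Normal to 10.8 to 11.9 in Tumor. *Prlr*, the prolactin receptor, had a log2 fold change of -0.57 (0.0858), *Stat5a* of -0.06 (0.818) and *Stat5b* of -0.34 (0.0565), none of them called. The interval of *Prlr*, -1.16 to 0.02, does not allow a fall of 1 on the log2 scale to be told from none. In *Elf5* the order of the tumors was that of the 8 members, with replicate 2 highest and replicate 3 lowest.

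The second comparison asked whether C646 changed these genes in tumors. No milk protein gene was called in either direction: 0 of 10 were higher and 0 of 10 lower (limma, Benjamini-Hochberg adjusted p under 0.05), against a background of 0% higher and 0% lower of the 12083 genes tested. At an unadjusted p under 0.05 there was 1 member, *Btn1a1*, and 384 genes in all, 3.18% of those tested. The smallest adjusted p of any gene was 0.990. All 10 members overlapped between the groups, and of all genes tested 4.04% did not overlap and were higher in C646 and 4.52% were lower.

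The fitted log2 fold changes were above 0 for all 10 members, beside 46.9% of all genes tested. Several members vary together across samples, so these are not 10 independent observations. *Btn1a1* was at 9.50, 26.8 and 16.2 FPKM in DMSO and at 23.6, 73.0 and 90.0 FPKM in C646. The lowest C646 tumor was below the highest DMSO tumor. Its log2 fold change was 1.74 (95% confidence interval 0.39 to 3.09, limma adjusted p = 0.990).

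*Csn2* was at 16.4, 250.2 and 395 FPKM in DMSO and at 109, 2373 and 1818 FPKM in C646, with a log2 fold change of 2.73 (-0.91 to 6.36). *Csn1s1* was at 29.5, 134 and 400.0 FPKM in DMSO and at 98.6, 1105 and 1246 FPKM in C646, with a log2 fold change of 2.14 (-0.77 to 5.06). *Csn1s2a* was at 3.65, 28.1 and 177 FPKM in DMSO and at 34.0, 788 and 677 FPKM in C646, with a log2 fold change of 3.32 (-0.62 to 7.25). In each of the 3, C646 replicates 2 and 3 were above all DMSO tumors, while C646 replicate 1 was below 2 of them for *Csn2* and *Csn1s1* and below 1 for *Csn1s2a*. The adjusted p was 0.990 for each (limma). Single tumors moved these values: without DMSO replicate 1 they were 1.31 for *Csn2*, 1.15 for *Csn1s1* and 1.90 for *Csn1s2a*, and without C646 replicate 1 they were 4.14, 3.33 and 4.79.

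*Csn3* was at 4656, 6810.4 and 3707 FPKM in DMSO and at 5409.8, 5846 and 4978 FPKM in C646, and the C646 samples lay within the DMSO range. Its log2 fold change of 0.14 had an interval of -0.55 to 0.83. *Mfge8*, at 747 to 937 FPKM in DMSO and 763 to 948 FPKM in C646, had a log2 fold change of 0.03 with an interval of -0.38 to 0.43. For *Mfge8* the interval left out a change of 1 on the log2 scale in either direction, also in all 15 alternatives with a test. For *Csn3* it did so here and in 10 of the 15. The upper limit was 1.163 without the filter, 1.09 without DMSO replicate 2, 1.10 without C646 replicate 1, 1.04 without C646 replicate 2 and 1.15 without C646 replicate 3.

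*Lalba* was at 437, 1572 and 906 FPKM in DMSO and at 1357, 1837 and 2014 FPKM in C646 (log2 fold change 1.00, -0.07 to 2.07). *Wap* was at 88.6, 146.0 and 349 FPKM in DMSO and at 129, 807 and 271 FPKM in C646 (0.88, -0.87 to 2.63). Both groups overlapped for each gene, and the widths of the intervals do not allow a change of 1 on the log2 scale to be told from none. *Xdh* (0.35, -0.22 to 0.91) and *Csn1s2b* (0.98, -0.96 to 2.91) did not differ beyond their spread either. With 1 sample left out, *Wap* ranged from 0.17 (without C646 replicate 2) to 1.499 (without C646 replicate 1), *Csn1s2b* from 0.18 (without DMSO replicate 1) to 1.51 (without DMSO replicate 2), *Lalba* from 0.52 (without DMSO replicate 1) to 1.44 (without DMSO replicate 2) and *Xdh* from 0.18 (without C646 replicate 3) to 0.58 (without DMSO replicate 1).

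Casein composition varied within both groups. *Csn3* made up 98.9%, 94.3% and 79.2% of casein FPKM in DMSO and 95.7%, 57.8% and 57.1% in C646 (exact two-sided permutation test, p = 0.3). The members made up 1.10%, 1.77% and 1.08% of all FPKM in DMSO and 1.48%, 2.57% and 2.30% in C646 (exact two-sided permutation test, p = 0.2). As in the other experiment, *Csn1s1* correlated with *Csn1s2a* (r = 0.99) and *Csn2* (r = 0.97) after removing group means and not with *Csn3* (r = -0.20), over 6 samples and with no test. With *Csn1s2b* its r was 0.53.

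No gene of either related list was called between C646 and DMSO (limma). At an unadjusted p under 0.05 were 3 of 19 tested milk and secretion genes and 1 of 17 tested regulators. The share over all genes tested was 3.18%. The 3 were *Cd36*, *Lpl* and *Muc15*, all higher in C646, with *Cd36* and *Lpl* named above as also expressed by adipocytes. The regulator was *Stat5b*, with a log2 fold change of 0.56 (95% confidence interval 0.18 to 0.94). Luminal markers summed to 3333 to 3939 FPKM in DMSO and 2884 to 3553 in C646, with 0 of 8 called and 0 at an unadjusted p under 0.05. Adipocyte markers summed to 17.7 to 78.7 FPKM in DMSO and 104 to 616 in C646. Of the 7 tested, 0 were called (limma) and 7 were at an unadjusted p under 0.05, beside 3.18% of all genes tested. *Plin1*, *Adipoq*, *Retn* and *Cidec* met the filter only because of C646, where they were higher, and are no support for the 7 of 7. Adipocyte markers were higher in the same group as the member averages, and their part in those averages was not tested.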

How the data were processed

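The authors sequenced poly(A) RNA with a non-directional kit, so sense and antisense reads cannot be told apart, and deposited FPKM values per gene for each sample, made with TopHat2 2.1.1 and Cufflinks 2.2.1 on mm10 (annotation not given in the sources used here). FPKM keeps no read counts, so no depth-based interval is given. Rows without a name (up to 4.56% of FPKM) were left out and repeated names summed. Each experiment, with tables of its own, was fitted separately with limma 3.58.1 in R 4.3.3 (eBayes with trend) on log2 values after adding 0.03125 FPKM. Genes had to reach 1 FPKM in 3 or more of the 6 samples, with Benjamini-Hochberg adjustment over all genes tested and a threshold of 0.05. The fit was tested on simulated data.

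All 10 members are named. From the 2 related lists, the 4 called genes with the largest change in each direction are named, plus *Prlr*, *Jak2*, *Stat5a*, *Stat5b* and *Elf5*. A few others are named where a count or a limit is explained. Members and lists were chosen with earlier results of these data known. Alternatives were other pseudocounts, scalings and filters, a replicate block, leaving out each sample, and values relative to luminal markers. For the last, a limma fit was also run but not used for Tumor against Normal. After 1 marker mean per sample was subtracted, limma estimated an infinite prior df there and replaced each gene's own spread by a common one. In C646 against DMSO the same subtraction gave a finite prior df of 5.08, and the reason for the difference was not tested. After the infinite value was seen, differences with the exact permutation test were used instead, in both experiments. In the other 32 fits the prior df was finite (2.14 to 4.00).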

Additional observations from a re-analysis of the deposited data

How the results depend on the processing

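Under the alternatives with a test, 144 member log2 fold changes kept direction and side of the threshold for Tumor against Normal and 147 for C646 against DMSO. Relative to luminal markers, which gave no test, 4 and 1 moved by more than the replicate SD in the same direction. On that scale *Btn1a1* (-1.04), *Xdh* (-0.91) and *Mfge8* (-1.12) turned, as the markers' own difference was subtracted, and all genes had a median of -2.53. *Csn1s1*, *Csn2* and *Btn1a1* became called only without Tumor replicate 3. For C646, *Csn3* ranged from -0.061 (without DMSO replicate 3) to 0.38 and *Mfge8* from -0.062 (without DMSO replicate 2) to 0.11 with 1 sample left out, *Mfge8* being -0.04 without C646 replicate 1. Leaving out 1 sample, genes called lower ranged from 2570 to 4172 in Tumor (2686 without Normal replicate 2) and from 0 to 12 in C646, the 12 without DMSO replicate 2. With the replicate block, 3439 genes were called higher and 3827 lower in Tumor, 6 members among the higher, and 0 in C646. It changed no member's call. Same-numbered samples correlated at -0.10 to 0.01 and 0.07 to 0.17 in their deviations from group means, and not every sample correlated best with its own number, so the numbers do not pair the samples. Median log2 fold change of all genes was -0.27 with scaling to a fixed sum and 0.12 with quantile normalization for Tumor, and 0.11 with the fixed sum for C646. With 3 samples a group, members spread as widely as *Csn1s2a* leave wide intervals, and read depth is unknown.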

Other observations

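*Glycam1*, which encodes a mucin-like milk glycoprotein also made in lymph nodes, was singled out after its values were seen. It was at 908, 1294 and 1053 FPKM in Normal and at 33.3, 2570.0 and 2.71 FPKM in Tumor. Its tumors had the order of the 8 milk protein genes, replicate 2 highest and replicate 3 lowest, and its log2 fold change was -4.12 (limma adjusted p = 0.135). B and T lymphocyte markers were lower in the same tumors, and their part in this value was not tested.

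After group means were removed, the genes most like the average of the 10 milk protein genes in the Normal and Tumor samples were *Slc16a12* (Pearson r = 0.997), *Mertk* (0.990), *Bcl2l15* (0.990), *Cyp1b1* (0.987) and *Apln* (0.987). In the DMSO and C646 samples they were *Ube2d1* (0.999), *Mfn1* (0.997), *Dffb* (0.995), *Ndufaf6* (0.995) and *Cln3* (0.995). Each r is over 6 samples and was picked as the highest among all genes tested, so it is a description with no test.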
